A study of Mus musculus with 9 samples.

Results

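In mouse liver, 27 circRNA probes read apart from sham on every array of injured organs, with or without preconditioning. The 27 comprised 18 probes that were raised and 9 that were lowered on all 6 arrays of injured livers, out of 10536 detected probes and 14236 circRNA probes on the array. The probes were chosen by the deposited log2 values themselves. A probe belonged when its values on all 3 arrays of the IRI (ischemia-reperfusion injury) group and all 3 arrays of the IPC (ischemic preconditioning) group lay above all 3 sham values, or below all 3. The IRI mean and the IPC mean also each had to lie at least 1.5-fold from the sham mean. A probe counted as detected when the scanner software marked it as well above background on 3 or more of the 9 arrays.

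The arrays held liver RNA of male C57BL/6 mice, and sham, IRI and IPC livers had 3 arrays apiece. In sham mice (labelled Sham) the vessels to the liver were dissected free but never clamped. IRI mice (labelled IR) had 1 h of partial hepatic ischemia and 6 h of reperfusion, and in IPC mice the same injury followed a short cycle, in which the vessels were clamped for 10 min and then opened for 10 min. Total RNA was treated with RNase R, which digests linear RNA, and labeled with a single dye. All mice were anesthetized with pentobarbital, fasted and opened by laparotomy, so the sham arrays carry the surgery without the occlusion. Ages are not given in the sources used here, and the methods state that 3 samples of each group were taken at random for the arrays.

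CircRNAs are closed loops of RNA that form when the splicing machinery joins a downstream splice donor to an upstream acceptor. They have no free ends, so exonucleases do not degrade them readily, and their levels can outlast those of the linear transcripts from the same gene. Liver reperfusion injury proceeds from oxygen shortage and oxidant stress to hepatocyte death and the entry of neutrophils and macrophages, and preconditioning by a short ischemia is known to lessen this damage. The array maker's probe IDs are the only names in the files. They are not paired there with circRNA names, host genes, positions or sequences, so the circRNAs are given here by probe ID, without host gene or function, and the liver label was not checked against marker genes. Since a transcript can have more than one probe on the array, some of the 27 probes may share a circRNA or a host gene, which was not examined here. In whole liver, fewer cells of a type and less circRNA per cell cannot be told apart.

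Sham replicate 1, IRI replicate 2 and IPC replicate 3 stood apart, since they were read in a second scan in which 77.3% to 80.6% of circRNA probes were well above background. On the other 6 arrays, read in the first scan, 46.8% to 63.3% were. Each scan held arrays of every group, and differences within each scan are given after the values of the probes. The medians of the deposited values were 5.36 to 5.38 on the 9 arrays.

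The rule left few probes. The 18 raised probes were 0.171% of those detected and the 9 lowered probes 0.0854%. The same values chose the probes, so the counts are descriptions and carry no test. Without the size limit, 88 probes (0.835% of those detected) had all 6 injured arrays above the sham arrays and 65 (0.617%) had all 6 below. Conversely, 26 probes were at least 1.5-fold higher in both means and 23 at least 1.5-fold lower, of which 8 and 14 had overlapping arrays and were not chosen. Among the 14236 probes with no detection limit the rule gave 18 and 9 probes too, so the limit removed none.

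Across all detected probes the median difference from sham was -0.01 for both the IRI and the IPC mean. From the 5th to the 95th percentile the IRI differences ran from -0.32 to 0.33 and the IPC differences from -0.27 to 0.30. Over the 18 raised probes the IRI mean was 0.59 to 1.33 above the sham mean, with a median of 0.67, and the IPC mean was 0.64 to 1.41 above it, with a median of 0.81. Over the 9 lowered probes the IRI mean was below the sham mean by -1.30 to -0.70 (median -0.83) and the IPC mean by -1.35 to -0.68 (median -0.82). On the linear scale these sizes are 1.51-fold to 2.66-fold for raised and 1.60-fold to 2.54-fold for lowered probes. Only 2 raised and 2 lowered probes differed by at least 1 on the log2 scale in both means. Both comparisons use the same 3 sham arrays, so a low or high sham value moves both differences together.

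ASCRP4005432 and ASCRP4007601 were the raised probes with both differences of at least 1. The deposited log2 values of ASCRP4005432 were 8.54, 8.94 and 8.36 on sham arrays 1 to 3, 9.51, 9.20 and 11.11 on IRI arrays 1 to 3, and 10.03, 9.99 and 9.76 on IPC arrays 1 to 3. One IRI array, replicate 3, lay far above the other injured arrays, and the IPC arrays lay close together. The IRI mean was 1.33 above sham, or 2.51-fold, and the IPC mean 1.32 above it, or 2.49-fold. Without IRI replicate 3 the IRI difference was 0.75.

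For ASCRP4007601 the sham arrays read 10.45, 11.08 and 9.95, the IRI arrays 11.90, 11.39 and 11.59, and the IPC arrays 11.93, 11.96 and 11.30. Sham replicate 2 came within 0.23 of the lowest injured array, IPC replicate 3. The means were 10.49 ± 0.56 (SD, n = 3) in sham, 11.63 ± 0.26 (SD, n = 3) in IRI and 11.73 ± 0.37 (SD, n = 3) in IPC. Here the sham arrays spread over 1.13 on the log2 scale, about as far as the groups lay apart.

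A further pair of raised probes lay higher in IPC than in IRI by over 0.4 on the log2 scale. ASCRP4005836 read 8.15, 8.37 and 7.29 in sham, 8.76, 8.85 and 9.17 in IRI, and 9.46, 9.44 and 9.15 in IPC. IRI replicate 3 lay above IPC replicate 3, so the IRI and IPC arrays overlapped. Its IRI difference from sham was 0.99 and its IPC difference 1.41, the largest IPC difference among the raised probes.

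The other, ASCRP4011700, had tight sham values of 7.24, 7.09 and 7.19. Its IRI values were 8.33, 8.41 and 7.53 and its IPC values 7.88, 7.98 and 9.64. IPC replicate 3 was the highest array by a wide margin, and without it the IPC difference from sham was 0.76 in place of 1.33. ASCRP4001676 had a like profile, with sham values of 5.70, 5.72 and 5.75, IRI values of 6.77, 6.33 and 6.08, and IPC values of 6.10, 6.18 and 7.45. Its IPC difference of 0.86 was 0.42 without IPC replicate 3, which is below the size limit. For both probes IRI replicate 3 was the injured array nearest to sham.

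The widest gap between the highest sham array and the lowest injured array among raised probes was 0.45, for ASCRP4008283. Its values were 5.03, 5.30 and 5.25 in sham, 6.04, 5.81 and 6.43 in IRI, and 5.91, 6.14 and 5.75 in IPC. The sham signal was dim: it stood well above background in 1 sham liver and in all 3 livers of each injured group. It was the only raised probe not well above background on all 9 arrays.

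ASCRP4010020 had a gap of 0.36, with 6.01, 5.75 and 5.67 in sham, 6.45, 6.50 and 7.33 in IRI, and 6.79, 6.73 and 6.37 in IPC. It and ASCRP4008283 were among the 4 raised probes in which the IRI mean lay above the IPC mean, with IPC minus IRI differences of -0.13 and -0.16 on the log2 scale. ASCRP4004610 read 6.70, 6.95 and 6.71 in sham, 7.87, 7.31 and 7.83 in IRI, and 7.88, 8.30 and 7.09 in IPC, with both scan 2 arrays of the injured groups below the other injured arrays.

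Among raised probes ASCRP4004821 had the least spread in IRI, with 9.05, 8.97 and 8.90 against 8.39, 8.65 and 7.91 in sham and 8.92, 9.40 and 9.05 in IPC. Its differences were 0.66 for IRI and 0.81 for IPC. Similar sizes were seen for ASCRP4003067, whose sham values of 7.18, 7.41 and 7.03 stood below 8.11, 7.82 and 7.69 in IRI and 7.63, 8.14 and 7.91 in IPC, with differences of 0.67 and 0.69. For ASCRP4011242 the sham values were 6.74, 7.01 and 6.72, the IRI values 7.76, 7.20 and 7.50, and the IPC values 7.57, 8.14 and 7.21. In these 3 probes IPC replicate 2 was the highest array.

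For 4 raised probes the arrays were separated by less than 0.1 on the log2 scale. ASCRP4013318 read 6.26, 6.88 and 6.63 in sham, 7.03, 7.01 and 7.55 in IRI, and 7.25, 7.74 and 6.89 in IPC. Its gap, between sham replicate 2 and IPC replicate 3, was 0.000678 and the thinnest of all. ASCRP4004423 read 5.83, 5.82 and 6.17 in sham, 6.78, 6.18 and 7.04 in IRI, and 6.73, 6.80 and 6.79 in IPC, with a gap of 0.01 between sham replicate 3 and IRI replicate 2. ASCRP4011898 read 5.50, 5.82 and 5.80 in sham, 6.78, 6.29 and 5.84 in IRI, and 6.47, 6.53 and 6.04 in IPC, with a gap of 0.02. Its IRI difference of 0.60 was 0.36 without IRI replicate 1. ASCRP4007128 read 6.72, 6.79 and 6.18 in sham, 7.20, 7.27 and 7.08 in IRI, and 6.87, 7.58 and 7.29 in IPC, with a gap of 0.07. The scanner software's error of a single spot was 0.14 to 0.37 on the log2 scale at its largest for each raised probe. For 8 of the 18 the gap was smaller than that error, as it was for 4 of the 9 lowered probes. The error is relative to the background-corrected signal and the gap is in deposited values, so they are not like for like. For 14 raised and 6 lowered probes the gap was smaller than the range of the sham arrays. On the 4 raised probes with a gap under 0.1 a single array decides whether the groups overlap.

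The remaining raised probes, ASCRP4010512, ASCRP4000441 and ASCRP4008013, had gaps of 0.11, 0.13 and 0.16. For ASCRP4010512 the values were 7.24, 7.39 and 6.81 in sham, 7.80, 7.56 and 8.07 in IRI, and 7.79, 8.12 and 7.50 in IPC, and the difference was 0.66 for each injured group. For ASCRP4000441 they were 7.89, 8.36 and 8.16 in sham, 8.86, 8.54 and 8.80 in IRI, and 9.02, 9.03 and 8.49 in IPC. In both, a scan 2 array was the lowest of its injured group. ASCRP4008013, with 5.73, 5.96 and 5.58 in sham, 6.31, 6.12 and 6.62 in IRI, and 6.28, 7.05 and 6.19 in IPC, was the raised probe nearest inside the size limit, with an IRI difference of 0.59 and an IPC difference of 0.75, which was 0.48 without IPC replicate 2. Just outside was ASCRP4006813, whose arrays did not overlap either but whose IRI difference was 0.56. Members and probes just under the limit thus differ by a few hundredths on the log2 scale.

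Among the lowered probes ASCRP4006192 was set apart most clearly. It read 7.51, 7.95 and 7.86 on the sham arrays, 6.79, 6.38 and 6.23 on the IRI arrays, and 6.32, 6.34 and 6.91 on the IPC arrays. Even the lowest sham array stood 0.60 above the highest injured array, the widest gap of the 27 probes and the only one above the size limit. The mean was 7.77 ± 0.23 (SD, n = 3) in sham, 6.47 ± 0.29 (SD, n = 3) in IRI and 6.52 ± 0.33 (SD, n = 3) in IPC, so the circRNA signal was 2.47-fold lower in IRI and 2.38-fold lower in IPC.

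The other lowered probe past 1 in both means, ASCRP4007413, rested on its sham arrays. They read 6.65, 7.36 and 5.65, against 5.45, 5.06 and 5.53 in IRI and 5.28, 5.62 and 5.54 in IPC. Sham replicate 3 lay 0.03 above the highest injured array and sham replicate 2 far above it. Leaving out sham replicate 2 brought the IRI difference from -1.21 to -0.80 and the IPC difference from -1.08 to -0.67. The spot was well above background on 3 sham, 2 IRI and 2 IPC arrays.

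ASCRP4009387 was lower in IPC than in IRI. Its sham values were 8.43, 8.57 and 7.85, its IRI values 7.52, 7.50 and 7.45, and its IPC values 6.47, 6.88 and 7.48. The IRI arrays were nearly equal, and IPC replicate 3 lay among them while the other 2 IPC arrays lay below. Its IPC mean was -1.35 from sham, or 2.54-fold lower, and its IRI mean -0.80, or 1.74-fold lower.

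ASCRP4012765 read 7.33, 7.46 and 7.12 in sham, 6.53, 5.91 and 6.54 in IRI, and 6.35, 6.74 and 6.48 in IPC. ASCRP4006869 read 6.70, 7.03 and 7.03 in sham, 5.96, 5.86 and 6.45 in IRI, and 5.53, 6.20 and 6.33 in IPC. The gap between sham and injured arrays was 0.37 for the first and 0.25 for the other, and in both the IRI and IPC arrays were interleaved. ASCRP4006866 had sham values of 7.36, 8.0 and 7.64, IRI values of 7.14, 6.48 and 6.39, and IPC values of 6.82, 7.20 and 6.90, with a gap of 0.16.

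ASCRP4009863 had a dim signal. It was 5.41, 5.44 and 5.58 in sham, 4.59, 5.02 and 4.74 in IRI, and 4.63, 4.42 and 4.92 in IPC. It was well above background on all 3 sham arrays but on 1 IRI and 1 IPC array, so the size of its decrease depends on how background was handled. The largest scanner error of its spot on any array was 1.42 on the log2 scale. That error is relative to the background-corrected signal, so it is not like for like with the deposited values. On that signal, quantile normalized, its differences were larger, at -2.37 for IRI and -2.56 for IPC.

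For ASCRP4002227 the sham values were 7.87, 8.78 and 7.90, the IRI values 7.72, 7.39 and 7.12, and the IPC values 7.38, 7.68 and 7.34. Sham replicate 2 stood well above the others, and without it the differences were -0.47 for IRI and -0.42 for IPC in place of -0.77 and -0.71. ASCRP4010298, the lowered probe nearest inside the size limit, had an IPC difference of -0.68 and a gap of 0.01, between sham replicate 1 at 7.24 and IPC replicate 2 at 7.23. Just outside the limit was ASCRP4001727, with an IPC difference of -0.57.

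The arrays did not contribute alike. Sham replicate 2 was the highest sham array for 14 of the 18 raised and 8 of the 9 lowered probes, against 35.6% of all detected probes. The lowest sham array was replicate 3 for 10 raised probes, against 29.2% of all detected, and replicate 1 for 6 lowered ones, against 37.8%. IPC replicate 2 was the highest injured array for 10 of the 18 raised and 4 of the 9 lowered probes, against 18.1% of all detected probes, and IPC replicate 3 was the lowest for 7 raised probes, against 19.1%. IRI replicate 3 was the lowest injured array for 4 of the 9 lowered probes, against 16.0% of all detected. The part of single livers in these patterns was not tested.

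All 27 probes kept the direction of both differences within each scan. In scan 1, with 2 arrays per group, both differences reached 1.5-fold for 14 of the 18 raised and all 9 lowered probes. In scan 2, with 1 array per group, they did so for 9 raised and 5 lowered probes. For ASCRP4006192 the IRI and IPC differences were -1.39 and -1.58 in scan 1, and -1.13 and -0.60 in scan 2. For ASCRP4011700 the IPC difference was 0.79 in scan 1 and 2.40 in scan 2, where the IPC array was replicate 3. ASCRP4001676 had IPC differences of 0.41 and 1.76 in the same order. Most raised probes lay nearer to sham in scan 2. For ASCRP4005432 the IRI difference was 1.66 in scan 1 and 0.66 in scan 2, and for ASCRP4010020 it was 1.18 and 0.49. ASCRP4004610 had IPC differences of 1.26 and 0.38. For ASCRP4010512 the IRI and IPC differences were 0.83 and 0.85 in scan 1, and 0.33 and 0.26 in scan 2, where neither reached 1.5-fold. Among lowered probes the IPC difference of ASCRP4006869 was -1.16 in scan 1 and -0.37 in scan 2, while the IRI difference of ASCRP4012765 was the larger in scan 2, at -0.75 and -1.42. The rule used these same arrays, so the shared direction within scans follows from the choice of the probes.

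A reading on arrays that had no part in the choice came from applying the rule to 8 arrays and then looking at the array left out. With an injured array left out, 13 to 23 raised probes were chosen, and the left-out array lay above all 3 sham arrays for 78.3% to 100% of them. For lowered probes the share below all 3 sham arrays was 47.1% (8 of 17, without IPC replicate 3) to 100%. Over all detected probes 21.4% to 24.7% were above and 23.7% to 27.9% below, but those shares are no like-for-like yardstick, because the sham arrays still chose the probes. With a sham array left out, the test was against 6 arrays and so stricter: it lay below all 6 injured arrays for 52.5% to 63.6% of the raised probes and above all 6 for 45.5% to 75% of the lowered ones. Over all detected probes the sham array left out was below all 6 for 10.4% to 11.6% and above all 6 for 10.7% to 14.1%, again not like for like.

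Whether preconditioning altered the level of these circRNAs within injured liver was asked by comparing IPC with IRI, a contrast the rule does not name but whose values it used. In limma's test over all 10536 detected probes, 146 probes (1.39%) differed at least 1.5-fold with an unadjusted P below 0.05, and none passed the Benjamini-Hochberg adjustment, although 361 (3.43%) had an unadjusted P below 0.05. With the scan as a block in limma 757 had one, 213 were past both limits, and the smallest adjusted P was 0.0511. None of the 27 probes was among the 146. The smallest unadjusted P among the 27, from limma, was 0.0605, and the adjusted P was 0.999 for each. The rule needs both groups far from sham on the same side, which leaves less room for a difference between IPC and IRI. The P-values and intervals of the 27 are therefore descriptions of the fit, and do not show that the groups are alike.

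The IPC minus IRI difference of the raised probes lay between -0.16 and 0.42 on the log2 scale, with a median of 0.10, and that of the lowered probes between -0.55 and 0.30, with a median of 0.06. The IPC mean was the farther from sham for 14 of the 18 raised and 3 of the 9 lowered probes. Each 95% interval from limma included 0. For 7 raised and 2 lowered probes the interval lay within 1.5-fold on either side, as it did for 62.3% of all detected probes. Of the 27, ASCRP4003067 was one of these, with a difference of 0.02 and an interval of -0.37 to 0.42, and ASCRP4006192 another, with 0.05 and an interval of -0.43 to 0.53. The dim ASCRP4008283, at -0.16 (-0.56 to 0.25), and ASCRP4009863, at -0.12 (-0.49 to 0.25), also belonged to them on the deposited scale, which narrows differences near background.

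The other 18 intervals reached past 1.5-fold on at least one side. ASCRP4005432 had a difference of -0.01 with an interval of -0.93 to 0.90, and its IRI arrays had an SD of 1.02. ASCRP4005836 had 0.42 (-0.15 to 1.00) and ASCRP4011700 had 0.41 (-0.53 to 1.35). Among lowered probes ASCRP4006866 had 0.30 (-0.21 to 0.82) and ASCRP4012765 had 0.20 (-0.24 to 0.64), with the IRI mean the farther from sham. ASCRP4009387 had the largest difference of the 27, -0.55 with a standard error of 0.26 and an interval of -1.12 to 0.03. Within scan 1 its difference was -0.81, past 1.5-fold with an unadjusted P from limma of 0.0131 and an adjusted P of 0.999, and it was -0.82 without IPC replicate 3. With the scan as a block its unadjusted P from limma was 0.0329 and its adjusted P 0.654, the smallest of the 27 in that fit.

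The size of the differences depended on the scale of the signal. On the scanner's background-corrected processed signal, quantile normalized, the median IRI and IPC differences were 0.94 and 1.09 for the 18 raised probes and -1.23 and -1.28 for the 9 lowered ones. Probes near background moved most. For ASCRP4008283 the IRI difference was 1.97 in place of 0.90, with processed log2 signals of 3.30, 3.93 and 3.86 in sham and 5.60, 5.10 and 6.30 in IRI. ASCRP4009863 had an IRI difference of -2.37 and an IPC difference of -2.56 on this scale in place of -0.70 and -0.82. For ASCRP4007601 the IRI difference was 1.14 against 1.13.

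With that signal, 16 of the 18 raised and 8 of the 9 lowered probes met the rule again, among 47 raised and 23 lowered probes in all. In the 5 other treatments of the values (processed signal scaled by quantiles or by the 75th percentile, normexp correction, uncorrected spot medians, and scan means removed) 6 raised and 4 lowered probes met the rule each time. The raised ones were ASCRP4005432, ASCRP4007601, ASCRP4005836, ASCRP4011700, ASCRP4004610 and ASCRP4004821, and the lowered ones ASCRP4006192, ASCRP4006869, ASCRP4009387 and ASCRP4012765. These 10 were well above background on all 9 arrays. Of the others, ASCRP4011898 met the rule with the scan means removed only.

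Of the raised probes 17 of 18, and of the lowered probes 7 of 9, were well above background on all 9 arrays, where 5958 of the 10536 detected probes were. The choice itself used this mark and the size of log2 differences, so nothing is read from these counts. None of their spots was marked as saturated or as an outlier. The spots lay scattered over the 192 rows and 82 columns of the array, and no pair of members was closer than 6 spots. Within 2 spots of the array's edge lay 2 raised and 3 lowered probes, 18.5% of the 27, against 6.76% of detected probes. These were ASCRP4008283, ASCRP4008013, ASCRP4006192, ASCRP4007413 and ASCRP4006866. The 15 to 41 detected spots within 3 rows and columns of a member had median differences from sham of -0.10 to 0.13 for IRI and -0.22 to 0.06 for IPC. A member was chosen for its size and a median over many spots was not, so these values are given as a description.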

How the data were processed

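Liver RNA of 9 mice was hybridized to single-color circRNA arrays, 3 for each group. The authors deposited spot intensity on a linear scale, as read by Agilent Feature Extraction 11.0.1.1, and a table of processed log2 values. The methods state quantile normalization with limma and a filter on low intensities. How background was corrected in the table is not stated in those sources, and its values ranked with the uncorrected spot medians (Spearman correlation of 0.994 to 0.999 across probes). The other deposited measurements, flags per spot of unit other, mark spots well above background, saturated or outlying.

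The members and lists were chosen with earlier results of these data known. Named probes were up to 12 raised and 12 lowered probes with the largest smaller difference, which took in all 9 lowered ones, and those nearest the size limit on either side. The others were named after their values were seen. IPC and IRI were compared with limma 3.58.1 in R 4.3.3 fitted on all 9 arrays (6 residual degrees of freedom, 3.78 prior ones). The fit and the rule were tested on simulated data. The alternatives were other signals and scalings, other filters and sizes, the scan or the replicate number as a block, the methods' t-test, and each array left out. The measures of array edge, neighboring spots and extreme arrays were added after seeing the data. Probes were named only by ID, since the files used here pair none with a gene, and host gene and marker lists were not applied. Replicate numbers were not taken as pairs. The deviations of same-numbered arrays correlated at -0.65 to 0.63. Same-numbered arrays were split between the scans, so these correlations cannot decide whether the numbers pair the arrays. The number of arrays limits the precision. Among control probes printed in 10 spots, with a mean log2 spot median above that of a signal of 50, the median SD over spots was 0.065 to 0.116. P-values measure the spread between these 9 samples. The mRNA arrays were not analysed here.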

Additional observations from a re-analysis of the deposited data

How the results depend on the processing

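The rule gave 18 raised and 9 lowered probes on the deposited values. The quantile-normalized processed signal gave 47 and 23, and scaling to the 75th percentile 44 and 19. Normexp correction gave 6 raised probes. A size limit of 1 left 2 and 2, and no size limit gave 88 and 65. With the scan as a block, 15 probes were lowered. Leaving out 1 array gave 13 to 40 raised probes, the most without sham replicate 2, and 8 to 22 lowered ones, 22 of them without sham replicate 1 or 3, 15 without IPC replicate 2 and 17 without IPC replicate 3. Both differences of all 27 probes kept their direction under these treatments. The choice of the probes fixes this where 1 array is left out or a scan is taken alone. With the scan as a block the mean differences cannot change, since the groups were spread alike over the scans. Chosen on 8 arrays, 74.6% of raised and 65.3% of lowered choices held on the left-out array, with 52.5% to 100% and 45.5% to 100% over single arrays. These pool repeated choices of the same probes and tests against 3 and 6 arrays, and over all detected probes the shares were 10.4% to 27.9%. In IPC vs. IRI, 0 of the 27 probes were called, but 1 was within scan 1, and 0 to 1 with an IRI or IPC array left out. Within scan 1, limma called 137 of all 10536 detected probes, and its smallest adjusted P was 0.409. With the replicate block, which rests on numbers not shown to pair the arrays, limma called 0 of the 27 and 143 of all probes, against 146 without it. Over all probes that count was 377 on the processed signal, 339 with the 75th percentile, 87 with normexp, 50 with the methods' t-test, and 114 to 341 with an IRI or IPC array left out. Without IRI replicate 3, 4 probes outside the 27 passed the adjustment in limma. The cause of these moves was not tested. Probes near background have uncertain sizes.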
